A study of Homo sapiens with 8 samples.

Results

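The genes described here encode enzymes that interconvert active and inactive steroids: the 11β-hydroxysteroid dehydrogenases HSD11B1 and HSD11B2, the 17β-hydroxysteroid dehydrogenases HSD17B2, HSD17B4, HSD17B8 and HSD17B11, the aldo-keto reductase AKR1C3, the steroid reductases SRD5A1 and SRD5A3, and the steroid sulfatase STS. They were chosen by name with earlier results of these data known, so their counts beside those of all genes are only a description. Of the 10, 9 were read, by 15 probe sets, among 19775 genes in all. SRD5A3 was not analysed here. The cells were MDA-MB-453, an estrogen receptor-negative line from a human breast carcinoma that responds to androgen, held for 3 days without phenol red in 5% charcoal-treated serum, from which most steroid has been removed. The groups were vehicle and 10 nM DHT (5α-dihydrotestosterone, a potent natural androgen) for 4, 16 and 48 h, with 2 arrays each, labelled as biological replicates. All groups shared the stripped medium, no time is labelled for vehicle, and an effect of DHT therefore cannot be told apart from one of time in culture.

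Steroid hormones act through nuclear receptors, and the amount that reaches a receptor is set partly inside the target cell. Some reductases and the sulfatase produce active hormone or its precursors, some oxidative dehydrogenases turn active hormones into weaker ketones, and glucuronidation removes androgens for excretion. In breast tissue the sulfatase releases estrogen and androgen precursors from circulating sulfates, and apocrine breast cells are known for androgen metabolism.

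All values are log2 RMA signals (robust multi-array average, 1 unit is a doubling), and a change is the difference between group means with its standard error from limma (n = 2 each). A gene was called at a Benjamini-Hochberg adjusted p below 0.05 over all 19775 genes. FKBP5, a well known androgen-induced gene whose protein binds steroid receptor complexes, rose by 0.98 at 4 h, 2.45 at 16 h and 3.34 at 48 h. Of 10 luminal and apocrine markers 9 were read, at 9.92 to 14.5, among them KRT8, GATA3 and ERBB2. They also moved with treatment: at 48 h the marker PIP rose by 1.24 and KRT19 by 0.68, GATA3 fell by 0.85, FOXA1 by 0.72 and ERBB2 by 0.65, and 4 of the 9 had no call. The ERBB2 call was lost with the mean of its probe sets (adjusted p = 0.434). ESR1 and PGR, which mark estrogen receptor-positive cells, had 8.23 to 8.62 and 7.31 to 7.60. The 11 of 13 basal, immune, endothelial and fibroblast markers that were read had signals of 4.96 to 10.7. Their signals were summed on the linear scale, and the group means of the log2 of that sum ranged from 11.97 to 12.03. The brightest of them, COL1A1, with group means of 10.58 to 10.65, weighs most in that sum. Of these 11, KRT5, a basal keratin, was called at 48 h, with 8.66 against 8.15 with vehicle (adjusted p = 0.00666, lost without vehicle replicate 1 or DHT 48 h replicate 1), and the basal sum was 8.89 at 48 h against 8.44 with vehicle. The part of these marker shifts in the results below was not tested. No detection call was made, because signals of different probe sets cannot be set against each other and markers of cells that a pure line does not hold also gave signal. In a bulk culture, fewer cells with a transcript and less transcript per cell cannot be told apart. DHT 16 h replicate 2 stood apart in the difference between the 3′ and 5′ control probe sets of ACTB, at 1.52 against 0.203 to 0.945 on the other 7 arrays.

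Among the 9 genes, HSD11B2, SRD5A1 and STS changed with DHT, and the other 6 had no call in any of 5 comparisons. HSD11B2 rose at every time, SRD5A1 rose at 16 and 48 h, and STS fell at 16 and 48 h. At 4 h 1 of 9 rose, against 0.106% of all genes, and 0 of 9 fell, against 0.0708%. At that time 2 of the 9 had an unadjusted p below 0.05 in limma, beside 7.84% of all genes. At 16 h 2 of 9 rose (2.55% of all genes) and 1 fell (4.30%). At 48 h the counts were again 2 higher (3.13% of all genes) and 1 lower (6.38%). A moderated F test of any difference from vehicle over the 3 times called the same 3 of 9, against 8.90% of all genes. The median change of the 9 genes was 0.02 at 4 h, 0.13 at 16 h and 0.13 at 48 h, beside 0.00, 0.02 and 0.01 for all genes, so the middle of the set moved little.

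**Figure D1:**
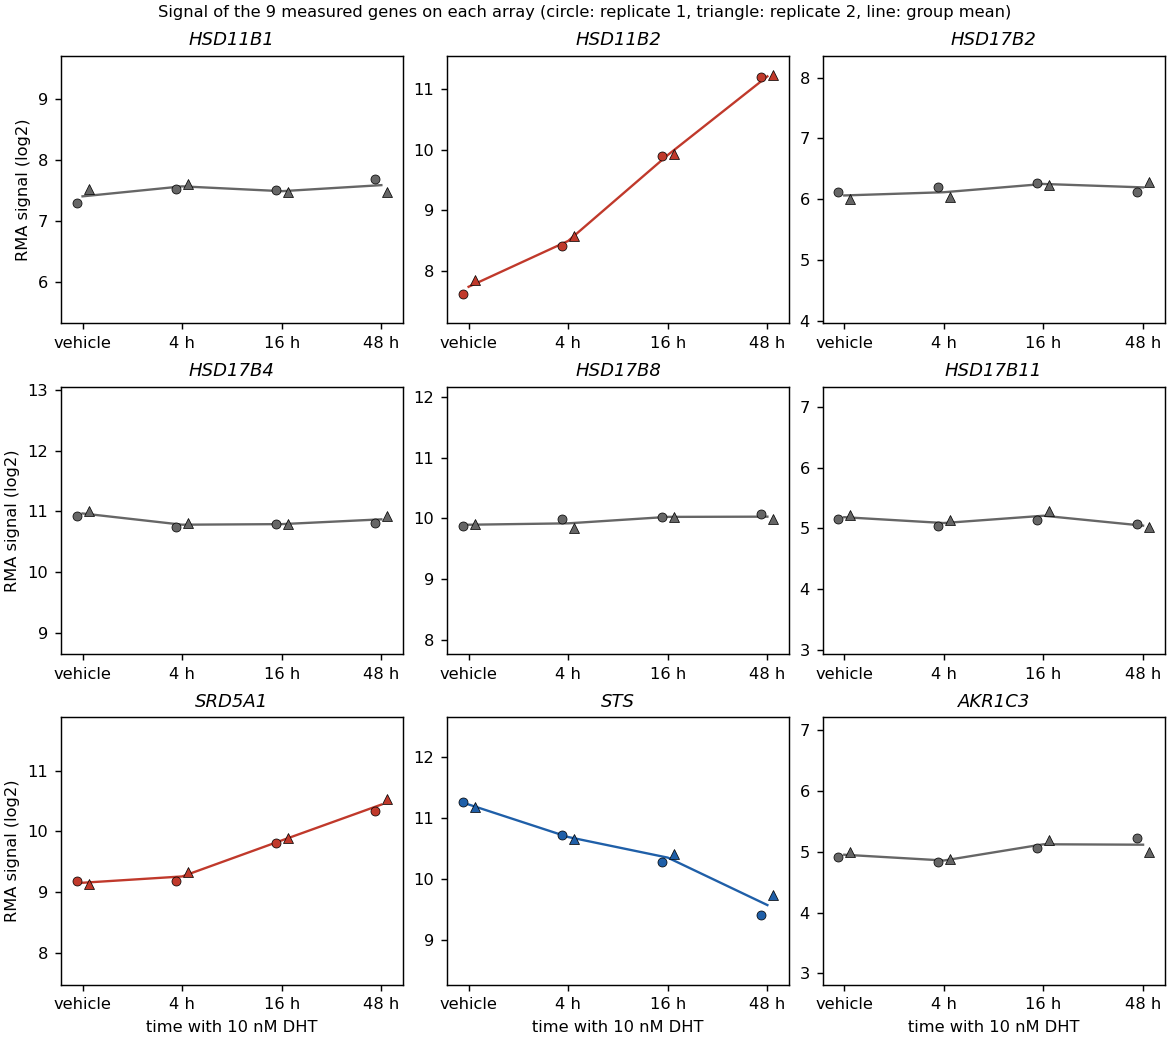
RMA signal (log2) of the 9 genes on each array, with vehicle and DHT for 4, 16 and 48 h on the x axis; circles and triangles are replicates 1 and 2, lines join group means, and every panel spans the same number of log2 units. HSD11B2 and SRD5A1 climb to 11.20 and 10.44 at 48 h, STS drops to 9.57, and the grey panels stay nearly level.

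HSD11B2 oxidises active cortisol to inactive cortisone and so shields the mineralocorticoid receptor from glucocorticoid. It is encoded on chromosome 16 (67429801 to 67437553, GRCh38.p14) and was read by 1 probe set. Its signal was 7.63 and 7.85 with vehicle, 8.41 and 8.58 at 4 h, 9.90 and 9.92 at 16 h, and 11.19 and 11.22 at 48 h. No array of one group overlapped any array of another, and the order of the groups was the order of time. The change was 0.75 ± 0.10 at 4 h (adjusted p = 0.0171), 2.17 ± 0.10 at 16 h (adjusted p = 3.87e-07) and 3.46 ± 0.10 at 48 h (adjusted p = 4.78e-09), or 1.69-fold, 4.50-fold and 11.0-fold. Among all genes this was the 14th, 10th and 6th highest change. On the log2 scale 21.8% of the 48 h change was present at 4 h and 62.6% at 16 h. Both later steps were called: 16 h exceeded 4 h by 1.41 ± 0.10 (adjusted p = 2.05e-05) and 48 h exceeded 16 h by 1.29 ± 0.10 (adjusted p = 0.000168). The call at 4 h was lost without vehicle replicate 1 (adjusted p = 0.213), without DHT 4 h replicate 1 or 2 (0.106 and 0.324) and without either 48 h array (0.0529).

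HSD11B1 runs the opposite reaction in most cells, making cortisol from cortisone with NADPH that H6PD supplies in the endoplasmic reticulum. Its signals were 7.29 and 7.52 with vehicle, 7.53 and 7.60 at 4 h, 7.51 and 7.47 at 16 h, and 7.70 and 7.48 at 48 h. The 48 h arrays overlapped those of vehicle, and the change was 0.18 with a 95% interval of -0.06 to 0.43. Of the related genes, H6PD had 9.39 and 9.30 at 48 h against 9.04 and 9.02 with vehicle, a rise of 0.31 ± 0.09 (adjusted p = 0.0473). That call was lost without either vehicle, 4 h or 48 h array (adjusted p = 0.082 to 0.273), and the 3 other H6PD probe sets had changes of 0.04 to 0.22 with no call. NR3C1, the glucocorticoid receptor, fell by 0.59 ± 0.10 at 48 h (adjusted p = 0.00348), although its brightest probe set outside the _s_at and _x_at kinds had -0.51 with no call (adjusted p = 0.408).

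SRD5A1, a steroid 5α-reductase, converts testosterone to DHT, the hormone given here. It lies on chromosome 5 (6633440 to 6674386) and was read by 3 probe sets. The brightest had signals of 9.18 and 9.13 with vehicle, 9.18 and 9.34 at 4 h, 9.81 and 9.90 at 16 h, and 10.34 and 10.54 at 48 h. The 4 h and vehicle arrays overlapped, while both later groups stood above them and apart from each other. The change was 0.10 ± 0.10 at 4 h (adjusted p = 0.863), 0.70 ± 0.10 at 16 h (adjusted p = 0.00199) and 1.29 ± 0.10 at 48 h (adjusted p = 1.4e-05), the last a 2.44-fold rise. At 4 h the 95% interval was -0.12 to 0.33, and 8.07% of the 48 h log2 change was present. The step from 4 to 16 h was 0.59 (adjusted p = 0.0103) and that from 16 to 48 h also 0.59 (adjusted p = 0.0244). The first step lost its call without DHT 4 h replicate 1 (adjusted p = 0.141) or DHT 16 h replicate 2 (0.0552). The second lost it without DHT 16 h replicate 2 (0.0799) or either 48 h array (0.0818 and 0.201).

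The other SRD5A1 probe sets pointed the same way at 16 and 48 h. Probe set 204675_at had 8.09 and 7.77 with vehicle, 7.79 and 7.77 at 4 h, 8.78 and 8.91 at 16 h, and 9.40 and 9.81 at 48 h, with changes of 0.91 at 16 h (adjusted p = 0.0166 over all probe sets) and 1.67 at 48 h (adjusted p = 0.000462). Probe set 210959_s_at had changes of 0.55 at 16 h (adjusted p = 0.0949, no call) and 1.38 at 48 h (adjusted p = 0.00113). At 4 h they read -0.16 and -0.14 where the brightest read 0.10, so the sign at 4 h differed between probe sets and none of the 3 was called. SRD5A2, the other classical 5α-reductase gene, had a change of 0.16 at 48 h (adjusted p = 0.431).

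STS removes the sulfate group from estrone sulfate and dehydroepiandrosterone sulfate and so supplies precursors of active sex steroids. The gene lies on chromosome X (7147290 to 7354641). Its brightest probe set had signals of 11.27 and 11.18 with vehicle, 10.73 and 10.65 at 4 h, 10.29 and 10.42 at 16 h, and 9.41 and 9.73 at 48 h. The groups did not overlap at any time and lay in the order of time. The change was -0.54 ± 0.11 at 4 h with no call (adjusted p = 0.135), -0.87 ± 0.11 at 16 h (adjusted p = 0.000861) and -1.66 ± 0.11 at 48 h (adjusted p = 3.92e-06). At 48 h the signal was 3.15-fold lower than with vehicle, the 42nd lowest change of all genes. Of the 48 h log2 change, 32.4% was present at 4 h and 52.8% at 16 h. Between 16 and 48 h STS fell further, by 0.78 ± 0.11 (adjusted p = 0.00908), and the step from 4 to 16 h was -0.34 with no call (adjusted p = 0.173). The later step lost its call without DHT 16 h replicate 2 (adjusted p = 0.0686) or DHT 48 h replicate 1 (0.110).

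**Figure D2:**
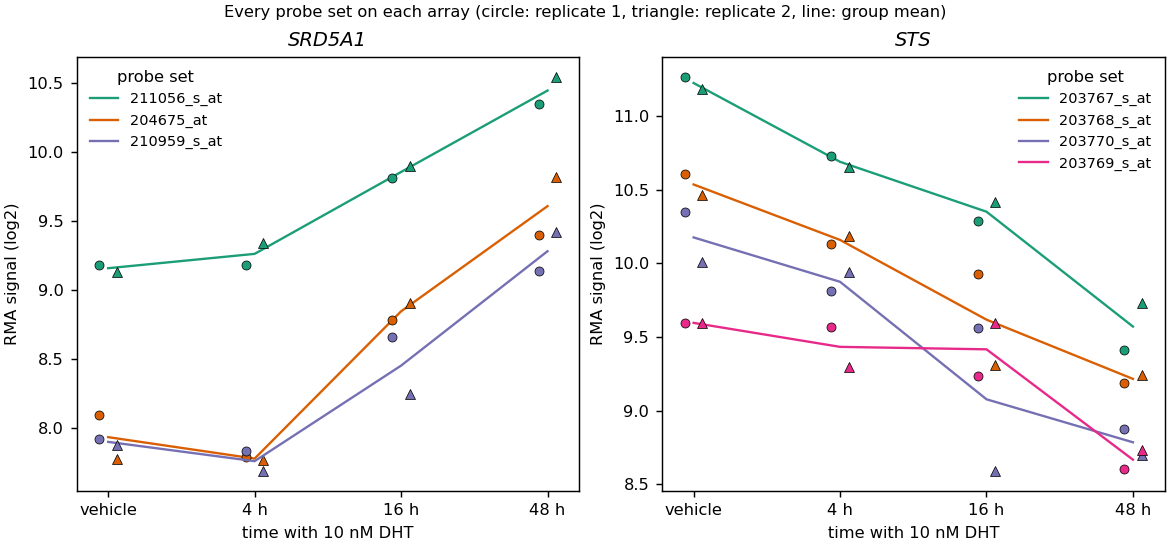
RMA signal (log2) of the 3 SRD5A1 and 4 STS probe sets on each array, against time with DHT; circles and triangles are replicates 1 and 2, and lines join group means. All SRD5A1 lines turn up between 4 and 16 h, and the STS probe set 203769_s_at has means of 9.60 with vehicle, 9.43 at 4 h and 9.42 at 16 h before it drops to 8.67 at 48 h, while the means of the other 3 are lower at each later time.

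All 4 STS probe sets fell at 48 h, and they differed at 16 h. Changes at 48 h were -1.32 for 203768_s_at, -1.39 for 203770_s_at and -0.93 for 203769_s_at (adjusted p = 0.00312, 0.0189 and 0.00614 over all probe sets). At 16 h the changes were -0.92 (adjusted p = 0.0253), -1.10 (adjusted p = 0.0648) and -0.18 (adjusted p = 0.584). The 16 h replicates of these probe sets disagreed, and not all in the same direction. On DHT 16 h replicate 2, the array with the large 3′ to 5′ difference, 203770_s_at read 8.59 against 9.56 in replicate 1, 203768_s_at read 9.31 against 9.93, and 203769_s_at read 9.60 against 9.24. The part of RNA quality in these differences was not tested. The brightest probe set, 203767_s_at, kept its 16 h call without that array. SUMF1, the enzyme that activates sulfatases after their synthesis, had 9.97 and 9.90 at 16 h against 10.37 and 10.29 with vehicle, a fall of 0.40 ± 0.10 (adjusted p = 0.0318). That call was lost without either vehicle array, either 4 h array or DHT 16 h replicate 2 (adjusted p = 0.0592 to 0.209), and SUMF1 had 0.06 at 48 h.

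Promoter windows, from 250 bases before to 50 bases after an annotated start, were matched by symbol in RefSeq (GRCh38.p14) for 8 of the 10 genes, 13 windows in all. HSD11B2 and HSD17B2 had no window, so nothing below on motifs covers them. Windows of SRD5A1 and STS were taken for display because both genes changed at 16 and 48 h, in opposite directions. A different motif was chosen for each gene, and only windows that held it are shown. For STS these are 2 of 5 windows. Capitals mark the GC box GGGCGG on either strand in SRD5A1 and the androgen response element half-site AGAACA on either strand in STS. The first is SRD5A1 at chr5:6633190-6633489, and the STS windows are at chrX:7147040-7147339 and chrX:7251994-7252293, all on the + strand.
SRD5A1: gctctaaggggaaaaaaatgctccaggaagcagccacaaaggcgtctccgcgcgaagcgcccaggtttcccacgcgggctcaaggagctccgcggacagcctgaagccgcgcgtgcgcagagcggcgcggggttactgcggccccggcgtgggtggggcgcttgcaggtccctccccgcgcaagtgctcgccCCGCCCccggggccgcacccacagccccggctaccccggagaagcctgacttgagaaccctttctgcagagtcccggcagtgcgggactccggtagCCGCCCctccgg
STS, first start: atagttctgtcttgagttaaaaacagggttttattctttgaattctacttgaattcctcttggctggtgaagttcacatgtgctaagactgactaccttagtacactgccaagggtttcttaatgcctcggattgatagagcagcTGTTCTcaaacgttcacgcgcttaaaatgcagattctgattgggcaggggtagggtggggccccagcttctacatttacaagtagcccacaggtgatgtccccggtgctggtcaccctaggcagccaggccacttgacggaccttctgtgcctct
STS, later start: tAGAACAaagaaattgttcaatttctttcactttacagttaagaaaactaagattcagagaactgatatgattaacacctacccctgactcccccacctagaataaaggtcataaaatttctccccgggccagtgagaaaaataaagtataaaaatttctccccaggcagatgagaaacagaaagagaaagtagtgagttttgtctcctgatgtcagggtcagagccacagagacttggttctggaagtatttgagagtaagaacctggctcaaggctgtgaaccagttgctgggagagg
The SRD5A1 window had 71% G and C, GC boxes from bases 193 and 289 and 0 half-sites. Of 5 STS windows, 2 held a half-site, from base 146 and base 2. The half-site was in 14.8% and the GC box in 45% of 35116 windows. The full palindrome is AGAACA followed after 3 bases by TGTTCT and so holds a half-site on each strand. It was in 0 of the 13 windows and in 1 of the 35116. The arrays do not tell which STS start was used, and a match of letters is only a description.

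The 17β-hydroxysteroid dehydrogenases and AKR1C3 had no call at any time. HSD17B4, a peroxisomal enzyme of fatty acid oxidation that also oxidises estradiol, had 10.93 and 11.00 with vehicle, 10.75 and 10.81 at 4 h, 10.79 and 10.79 at 16 h, and 10.81 and 10.92 at 48 h. All 6 treated arrays lay below both vehicle arrays, by at most 0.19 in the group means (adjusted p = 0.686, 0.320 and 0.591). These signals came from the brighter of its 2 probe sets, and at 48 h the gap between the arrays was 0.005. The other, 1563696_at, had changes of -0.12, -0.03 and -0.11 with no call (adjusted p = 0.883, 0.914 and 0.605 over all probe sets). On it the 16 h and vehicle arrays overlapped. HSD17B8, which oxidises estradiol and takes part in mitochondrial fatty acid synthesis, had 9.88 and 9.91 with vehicle, 9.99 and 9.85 at 4 h, 10.02 and 10.03 at 16 h, and 10.07 and 9.99 at 48 h. Its 16 and 48 h arrays lay above those of vehicle, with changes of 0.13 and 0.13 (adjusted p = 0.498 and 0.448).

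HSD17B2, which oxidises estradiol and testosterone to their weaker ketones, had signals of 6.01 to 6.28 over the 8 arrays. HSD17B11, an enzyme of lipid droplets that oxidises an androgen metabolite, had 5.02 to 5.28. AKR1C3, which reduces androstenedione to testosterone, had 4.91 and 4.99 with vehicle, 4.83 and 4.88 at 4 h, 5.06 and 5.19 at 16 h, and 5.23 and 5.00 at 48 h. The 16 h arrays of AKR1C3 stood above those of 4 h by 0.27 ± 0.10 with no call (adjusted p = 0.257). Its relatives AKR1C1 and AKR1C2, which break DHT down, had changes of 0.07 and 0.04 at 48 h (adjusted p = 0.749 and 0.853), and cross-hybridisation within that family could not be told apart.

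For the 6 genes without a call, HSD11B1 included, changes from vehicle ranged from -0.19 to 0.16 at 4 h, -0.18 to 0.19 at 16 h and -0.14 to 0.18 at 48 h. Of these changes 0 had an unadjusted p below 0.05 in limma, beside 7.84%, 19.9% and 21.96% of all genes at 4, 16 and 48 h. These 6 were picked for lack of a call on the same arrays, which itself lowers that count. The shares of all genes are therefore no test of whether the 6 were unusually steady. The 95% intervals of these changes stayed within -0.35 and 0.43 at 48 h, and each bounds the change in signal of 1 gene taken alone. HSD11B1, HSD17B2, HSD17B11 and AKR1C3 were dim, with mean signals at the 31.6, 12.8, 5.21 and 4.48 percentiles of all genes. How far such dim signals follow the transcript was not tested. Treated and vehicle arrays did not overlap for 4 of these 6 genes at each time, beside 40.2%, 47.0% and 51.8% of all genes.

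**Figure D3:**
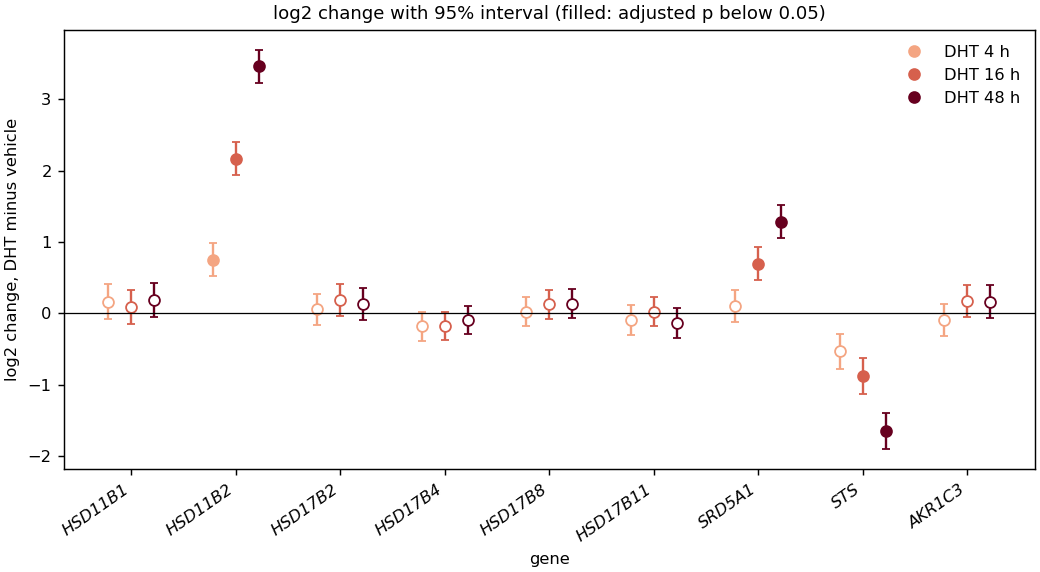
Log2 change of each of the 9 genes (DHT minus vehicle) at 4, 16 and 48 h, with 95% intervals from limma; filled points have an adjusted p below 0.05 over all genes. The filled points belong to HSD11B2, SRD5A1 and STS, and the intervals of the other 6 genes lie within -0.38 and 0.43.

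The DHT groups were also compared with each other, which tests whether the signal differed between times with DHT. Without a vehicle group for each time, a changed response to DHT cannot be told apart from time in culture. From 4 to 16 h limma had 4 of 9 genes at an unadjusted p below 0.05, beside 14.25% of all genes. By call 2 of the 9 rose, HSD11B2 and SRD5A1 (1.28% of all genes rose), and 0 fell (1.77% of all genes). From 16 to 48 h the same pair rose (0.349% of all genes) and STS fell (0.480%). For SRD5A1 and STS the call of this last step depended on the fit. Both calls were lost with only the 2 groups fitted (adjusted p = 0.114 for SRD5A1 and 0.0636 for STS), and with every probe set tested none of their 7 probe sets was called. All 3 genes kept their call with the mean of a gene's probe sets, and with no _x_at or _s_at probe set where another exists. STS has only _s_at probe sets, so the latter could not alter it. The 3 SRD5A1 probe sets had steps of 0.59, 0.76 and 0.83 (adjusted p = 0.105, 0.147 and 0.105 over all probe sets), with the 48 h arrays above the 16 h arrays in each. The STS steps were -0.78 for 203767_s_at, -0.40 for 203768_s_at, -0.75 for 203769_s_at and -0.29 for 203770_s_at (adjusted p = 0.0578, 0.583, 0.118 and 0.845), and the arrays of 203770_s_at overlapped. The HSD11B2 step was called with only the 2 groups fitted and with every probe set tested.

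Of 46 other genes of steroid synthesis, conversion, sulfation and glucuronidation, 41 were read. At 4 h 1 of 41 rose and 0 fell, at 16 h 2 rose and 1 fell, and at 48 h 3 rose and 1 fell, with medians of 0.01, 0.09 and 0.08 beside 0.00, 0.02 and 0.01 for all genes. As shares of the 41, those that rose were 2.44%, 4.88% and 7.32%, beside 0.106%, 2.55% and 3.13% of all genes, and the 1 that fell at 16 h and at 48 h was 2.44%, beside 4.30% and 6.38%. At an unadjusted p below 0.05 limma had 2, 7 and 12 of the 41 (4.88%, 17.1% and 29.3%), beside 7.84%, 19.9% and 21.96% of all genes. UGT2B28, which conjugates androgens for excretion, was the gene called at 4 h, and its changes were 0.90, 3.59 and 4.44. Its 4 h call was lost without either vehicle array or either 4 h array (adjusted p = 0.113 to 0.278) and with every probe set tested (adjusted p = 0.157). It was read by 1 probe set, of the _x_at kind, which can match more than 1 transcript, so signal from close relatives cannot be told apart from its own. CYB5A, an electron carrier that favours androgen synthesis by CYP17A1, had 11.92 and 12.05 with vehicle, 12.01 and 11.93 at 4 h, 12.74 and 12.66 at 16 h, and 13.07 and 13.06 at 48 h. Its 4 h arrays overlapped those of vehicle, as for SRD5A1, and the later changes were 0.72 ± 0.09 (adjusted p = 0.000811) and 1.08 ± 0.09 (adjusted p = 2.15e-05). That probe set is also of the _x_at kind. A second _x_at and an _s_at probe set gave 1.05 and 1.03 at 48 h, whereas 217021_at gave 0.36 with no call (adjusted p = 0.0925).

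HSD17B6, which can form DHT by oxidising androstanediol, had 6.15 and 6.73 at 48 h against 7.19 and 6.95 with vehicle, a fall of 0.64 ± 0.16 (adjusted p = 0.0307). Its call was lost without vehicle replicate 1 (adjusted p = 0.236) or DHT 48 h replicate 1 (0.267) and with every probe set tested (0.0843). Without 1 array the change ranged from -0.92 to -0.35, and its second probe set had -0.34 with no call. The remaining 36 genes of the list had no call against vehicle at any time. Among these, SULT1A1, a sulfotransferase, had 0.36 and 0.37 at 16 and 48 h (adjusted p = 0.0696 and 0.0532). HSD17B12, which elongates fatty acids, and HSD17B10, a mitochondrial dehydrogenase, had 0.26 and -0.17 at 48 h (adjusted p = 0.0964 and 0.348). The steroidogenic genes STAR, CYP11A1 and CYP17A1 had changes of -0.01, 0.15 and 0.11 at 48 h, all without a call.

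**Figure D4:**
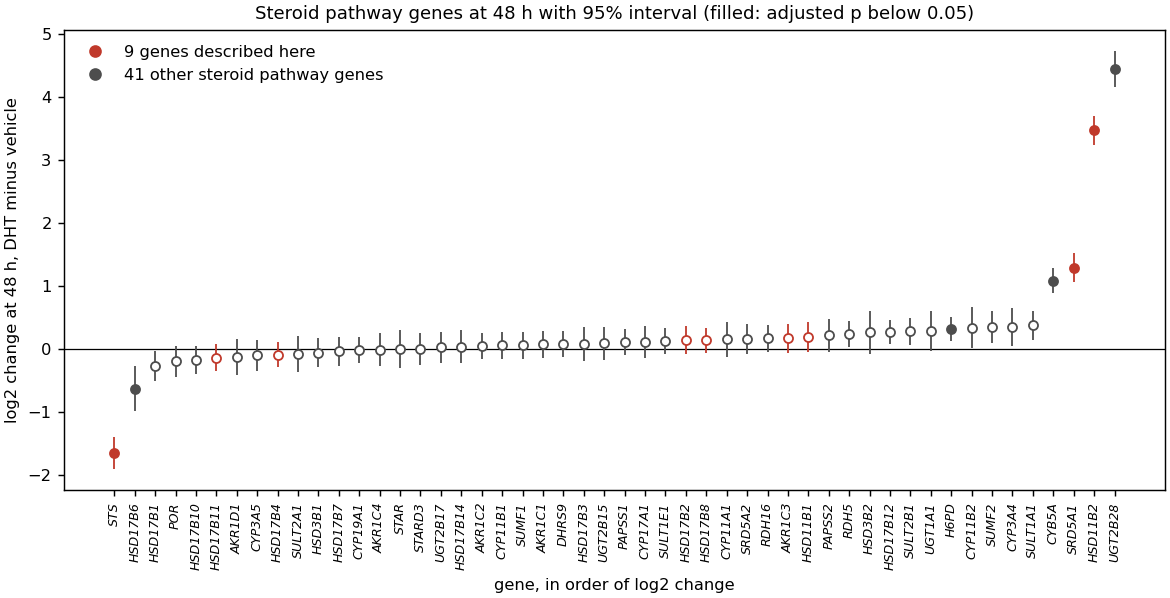
Log2 change at 48 h (DHT minus vehicle) with 95% intervals for the 9 genes (red) and 41 other steroid pathway genes (grey), in order of size; filled points have an adjusted p below 0.05. STS is lowest at -1.66, and SRD5A1 and HSD11B2 stand among the 4 highest with CYB5A and UGT2B28.

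The genes closest in course to each changed gene were found by the root mean square distance of the 8 array values, each minus the vehicle mean. For HSD11B2 they were C1orf116 and FKBP5, both at a distance of 0.22, and DDC, which makes amines from amino acids, at 0.44, with a median of 2.07 over all genes. C1orf116 had changes of 0.70, 2.17 and 3.06 at 4, 16 and 48 h. For SRD5A1 the closest were ACACA, the rate-limiting carboxylase of fatty acid synthesis, at 0.05, ECHDC2 at 0.09 and ARHGEF37 at 0.12, with a median of 0.73. ACACA had changes of 0.09, 0.72 and 1.20, with no call at 4 h, as for SRD5A1. For STS they were the long noncoding RNA DSCAM-AS1 at 0.14, SPTSSB, a subunit of serine palmitoyltransferase, at 0.16 and FRMD6 at 0.17, with a median of 0.995. DSCAM-AS1 had changes of -0.37, -0.91 and -1.57. These distances come from the same 8 arrays and describe likeness of course only.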

How the data were processed

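The deposited table held log2 signals of 54675 probe sets on 8 Affymetrix arrays, normalised by the authors with RMA per the submitters' processing notes; no RMA version was given in the sources used here. Signals ran from 3.68 to 15.57, and nothing further was normalised. With 62 control probe sets set aside, 41091 probe sets had 1 gene symbol, 1801 several and 11721 none. Each gene was read by its probe set with the highest mean over the 8 arrays. The number of arrays limits the precision, and no dim genes were removed.

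limma 3.58.1 in R 4.3.3 fitted 4 group means to all 8 arrays (4 residual and 7.21 prior degrees of freedom), tested 5 two-sided comparisons, and Benjamini-Hochberg adjustment ran over 19775 genes. Other probe sets come from a fit over all 41091. The script was tested on simulated data. An exact permutation test of 2 arrays against 2 cannot go below 0.333, so none was run. The replicate numbers did not enter the model: deviations of same-numbered arrays correlated at -0.24 to 0.20 across genes, and nothing in the labels says that the numbers mark a shared day.

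The members, the list of 46 other pathway genes and the markers were chosen with earlier results of these data known. Named were all members, each list gene called in any comparison, family neighbours, 5 check genes, of which 1 is not reported here, and the 3 genes closest in course to each of the 3 members with the largest F. SULT1A1, STAR, CYP11A1, CYP17A1 and the marker genes in the text were named after their values were seen. Alternatives left out each array, added the replicate number as a block, or changed the groups in the fit, the probe set, the dim-gene filter, the scaling or the variance model.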

Additional observations from a re-analysis of the deposited data

Results flagged for a closer look

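Of the 9 genes, 3 differed in signal between times with DHT by a direct test of the 2 DHT groups. No time is labelled for vehicle, so a changed response to DHT cannot be told apart from time in culture. HSD11B2 was higher at 16 h than at 4 h by 1.41 and higher at 48 h than at 16 h by 1.29, and both differences were called without each of the 8 arrays in turn (limma adjusted p at most 0.000849 and 0.00663). SRD5A1 was higher by 0.59 at 16 h than at 4 h and again by 0.59 at 48 h than at 16 h, and leaving out 1 array raised the adjusted p to as much as 0.141 and 0.201. STS had -0.78 at 48 h against 16 h, and leaving out 1 array raised the adjusted p to as much as 0.110. With only the 2 groups fitted or every probe set tested, the 16 to 48 h steps of SRD5A1 and STS had no call. With 2 arrays per group no array could be tested as an outlier within its group.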

How the results depend on the processing

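The changes from vehicle of HSD11B2, SRD5A1 and STS at 16 and 48 h kept their direction and their call in all 18 alternatives. HSD11B2 has 1 probe set, so a change of probe set could not alter its values. All 4 STS probe sets are of the _s_at kind, so leaving out that kind could not alter STS. With every probe set tested only the brightest of each gene was followed. Of the others, 210959_s_at of SRD5A1 and 203769_s_at and 203770_s_at of STS had no call at 16 h. The number of the 9 genes called at 4 h (1) was 0 with only the 2 groups compared in the fit and 0 with every probe set tested, and 0 to 1 without 1 array. From 16 to 48 h the number (3) was 1 in each of those 2 fits and 1 to 3 without 1 array. From 4 to 16 h it was 1 to 2 without 1 array, and it was 3 at 16 h and 3 at 48 h without any array. With the replicate number as a block the counts were 1, 3 and 3 against vehicle, 2 from 4 to 16 h and 3 from 16 to 48 h; the block ended the calls of H6PD at 48 h (adjusted p = 0.0686), of FRMD6 from 16 to 48 h (0.0658) and of PIP at 16 h and from 4 to 16 h (0.0572 and 0.0745) among the named genes. Over all genes the calls at 4 h (35) ranged from 5 to 60 without 1 array and from 8 with every probe set tested to 74 with array weights. From 16 to 48 h all-gene calls (164) ranged from 37 to 644 without 1 array, the 644 being without DHT 16 h replicate 1, and were 63 with only the 2 groups compared and 74 with every probe set tested. With every probe set tested, the 8 at 4 h and the 74 from 16 to 48 h count probe sets out of 41091, not genes. CYB5A lost its calls with no _x_at or _s_at probe set (0.16 at 16 h and 0.36 at 48 h). At 16 h (1354) they ranged from 517 to 1654 without 1 array and were 798 with only the 2 groups compared; at 48 h (1881) the range was 834 to 2211. From 4 to 16 h (604) it was 171 to 1107, and 302 with only the 2 groups compared. FKBP5 lost its 4 h call without either 4 h array (adjusted p = 0.064 and 0.0807) and with the mean of its probe sets (0.326). With dim genes removed, HSD11B1, HSD17B2, HSD17B11 and AKR1C3 were not tested. The cause of these changes was not tested beyond the construction of each alternative.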
